A study of Mus musculus with 14 samples.

Results

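The 10 genes described here encode components of colonic mucus and proteins of the goblet cells that make it: Muc2, Fcgbp, Clca1, Tff3, Zg16, Klk1, Spink4, Agr2, Bcas1 and Spdef. They were chosen by gene name, with earlier results of these data known, and all 10 were found among the 55487 genes of the count table. In epithelial cells 13553 genes passed a filter on low counts, all 10 among them. In lamina propria macrophages 14087 genes passed, with 8 of the 10, all but Bcas1 and Spdef.

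RNA was sequenced from cells sorted from mouse colon. Every animal carried Tsc2fl/fl, an allele of Tsc2 whose floxed part Cre recombinase can delete. Animals called wt were Tsc2fl/fl Lyz2+/+, and animals called cre were Tsc2fl/fl Lyz2cre/+, in which Cre is expressed from the Lyz2 locus, a gene of myeloid cells. Epithelial cells (EpCAM+, CD44+ and CD45-) gave 4 wt libraries (females 2 and 4, males 6 and 7) and 4 cre libraries (female 5, males 8, 9 and 10). Macrophages of the lamina propria gave 3 wt libraries (females 2 and 4, male 6) and 3 cre libraries (males 8, 9 and 10), which serve here as a reference. The comparison of cre with wt epithelial cells asks how epithelium differs where the neighbouring Lyz2-expressing cells are meant to lack Tsc2. Since Lyz2cre was present only together with floxed Tsc2, effects of the allele itself and of the deletion cannot be told apart, and the age of the animals is not given in the sources used here. Library titles carry 4 mouse numbers per genotype while the design text names 3 control mice, so some wt epithelial libraries may share an animal, and the p-values would then be too small.

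Goblet cells are the mucus-secreting cells of the gut. Muc2, the main mucin of the colon, is folded and linked in the endoplasmic reticulum with the help of the disulfide isomerase Agr2, receives its sugars in the Golgi apparatus, and is stored in granules whose release forms the gel that keeps bacteria away from the epithelium. Fcgbp, Clca1, Zg16 and Tff3 are secreted with it and are proteins of that gel. The transcription factor Spdef drives the maturation of goblet cells, and Klk1 and Spink4 are a secreted serine protease and a secreted protein of the protease inhibitor family.

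RefSeq (GRCm38.p6) gave the promoters of 5 of the 10 genes: Muc2, Agr2, Klk1, Fcgbp and Spdef. Those of Klk1 and Agr2, the members that rose in cre epithelial cells, and of Muc2 and Fcgbp, which did not pass the test, are printed from 250 to 19 bases before the start, 5′ to 3′ on the plus strand, which is the coding strand of all of them. Capitals mark matches on either strand to any of 5 short motifs, and neighbouring or overlapping matches run together, as they do in Muc2. The core promoter box near many start sites was searched as TATAA. For zinc finger factors of gut identity the letters were AGATAA, and for forkhead factors, among them those of the intestine, they were GTTTAC. The intestinal homeobox factors of the caudal type were represented by TTTATG, and the Krüppel-like factors, among them one of goblet cells, by CACCC.
Klk1, chr7:44225110-44225341: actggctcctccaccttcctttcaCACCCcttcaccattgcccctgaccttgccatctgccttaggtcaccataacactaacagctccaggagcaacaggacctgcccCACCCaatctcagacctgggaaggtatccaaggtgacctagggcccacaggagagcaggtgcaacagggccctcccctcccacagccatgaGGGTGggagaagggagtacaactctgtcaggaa
Agr2, chr12:35992675-35992906: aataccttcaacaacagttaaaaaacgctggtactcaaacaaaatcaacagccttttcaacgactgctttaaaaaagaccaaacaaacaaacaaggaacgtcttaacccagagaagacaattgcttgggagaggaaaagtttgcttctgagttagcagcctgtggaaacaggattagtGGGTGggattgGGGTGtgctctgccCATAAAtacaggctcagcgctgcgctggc
Muc2, chr7:141690090-141690321: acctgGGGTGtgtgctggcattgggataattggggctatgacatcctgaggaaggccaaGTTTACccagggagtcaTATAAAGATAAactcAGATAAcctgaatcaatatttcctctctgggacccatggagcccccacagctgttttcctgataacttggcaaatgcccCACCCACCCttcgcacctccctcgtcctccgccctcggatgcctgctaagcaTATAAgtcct
Fcgbp, chr7:28070986-28071217: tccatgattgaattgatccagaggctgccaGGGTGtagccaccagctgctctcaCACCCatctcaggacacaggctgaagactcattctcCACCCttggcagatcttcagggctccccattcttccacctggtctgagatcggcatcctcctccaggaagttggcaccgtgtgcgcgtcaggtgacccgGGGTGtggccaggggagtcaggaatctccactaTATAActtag
TATAA began 28 bases before the start in Muc2 and Fcgbp, and also 174 bases before it in Muc2. No match was in the windows of Klk1 and Agr2. Spdef, which is not printed and did not pass the test either, had matches beginning 28 and 27 bases before the start. A contrast between these promoters was not tested. The box was in 22% of 32851 mouse promoters of the same length. CACCC matched in all 4 printed promoters and in 49.5% of all promoters. AGATAA (9.55% of all promoters) and GTTTAC (6.49%) matched only in Muc2 among the 4, and TTTATG (10.3%) only in Agr2. Spdef differed from the printed promoters in the letters of the Krüppel-like factors, which had no match in its window. Like Agr2, it had a match to the letters of the caudal type factors. These are matches of letters, not sites shown to be bound.

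In cre epithelial cells Klk1 and Agr2 rose, by 1.58-fold and 1.43-fold. The other 8 members did not pass the test. Among them Spink4 was higher in every cre library than in every wt library, whereas the mucin Muc2 and the gel proteins Tff3, Fcgbp and Clca1 had all 4 cre libraries inside the range of the wt libraries. In this comparison 2 of 10 members passed an adjusted p of 0.05 in edgeR's quasi-likelihood test, both higher in cre, against 9.17% of all genes tested, 5.64% higher and 3.53% lower. The median log2 change was 0.42 over the members and -0.05 over all genes tested, whose quartiles were -0.35 and 0.21. As the members were chosen with earlier results of these data known, these values describe them and do not test them as a set. In these bulk samples more goblet cells and more RNA of a gene per goblet cell cannot be told apart.

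**Figure D1:**
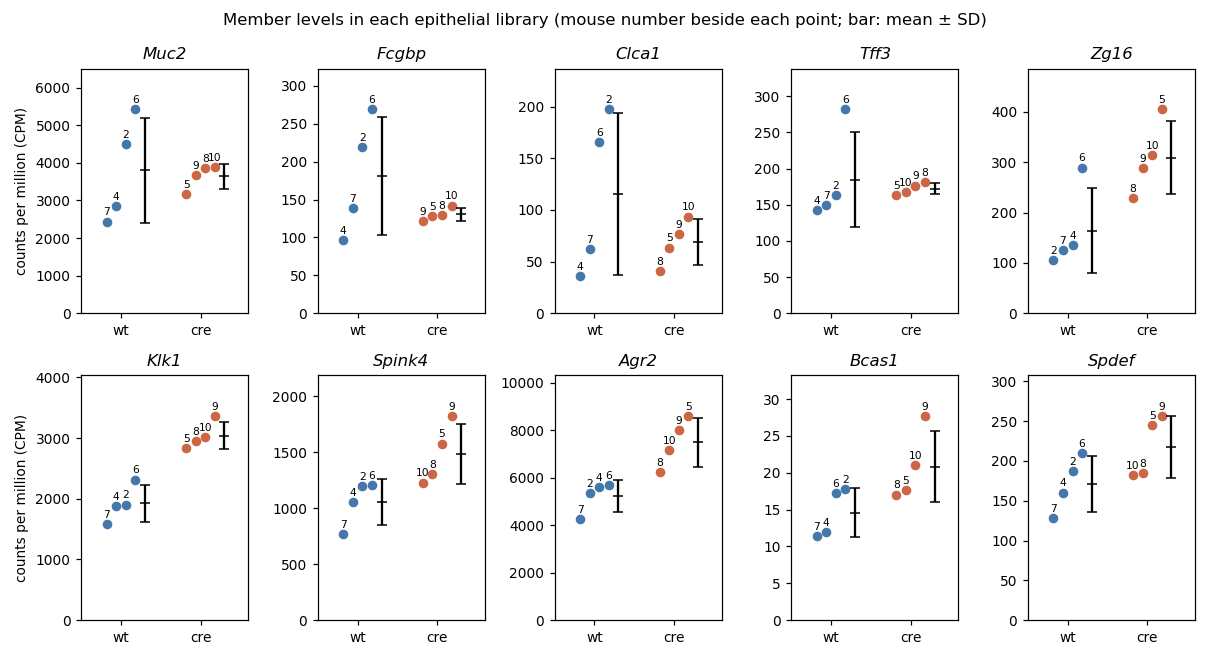
CPM (vertical axes, from 0) of the 10 members in each of the 4 wt (blue) and 4 cre (red) epithelial libraries, with the mouse number beside each point and bars for the mean ± SD. All cre points lie above all wt points for Klk1, Spink4 and Agr2, and all cre points lie within the span of the wt points for Muc2, Fcgbp, Clca1 and Tff3.

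Muc2 (chromosome 7, 141690340 to 141754693, plus strand, GRCm38) encodes the mucin that forms the gel. Its level was 4502 CPM (counts relative to the library size, scaled within each cell type) in wt 2, 2844 in wt 4, 5425 in wt 6 and 2440 in wt 7, and in cre libraries 3172 in mouse 5, 3851 in mouse 8, 3672 in mouse 9 and 3893 in mouse 10. The cre libraries lay together in the middle of the wt libraries, which fell into a higher pair (2 and 6) and a lower pair (4 and 7). Means were 3803 ± 1402 CPM for wt and 3647 ± 331 CPM for cre (SD, n = 4 each), and the log2 change was -0.06 (SE 0.23, 95% interval -0.58 to 0.46, adjusted p = 0.895). A change within that interval was not detectable with this spread, and the sign of the estimate turned in 8 of 22 alternative settings.

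Fcgbp (chromosome 7, 28071236 to 28120862) encodes a large protein bound in the mucus gel. It stood at 219, 96.6, 269 and 139 CPM in wt 2, 4, 6 and 7, and at 128, 130, 122 and 142 CPM in cre 5, 8, 9 and 10. Wt 2 and wt 6 were again high and wt 4 low, with every cre library between them. Its log2 change was -0.47 (SE 0.28, 95% interval -1.10 to 0.16, adjusted p = 0.311), and it depended on single wt libraries: without wt 4 it was -0.68 and passed (adjusted p = 0.0380), and without wt 6 it was -0.22 (adjusted p = 0.586). It was -0.21 (adjusted p = 0.491) after a trend on GC content and transcript length was removed and -0.17 (adjusted p = 0.877) with the ribosomal RNA share as a covariate.

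Clca1 (chromosome 3, 145003817 to 145032776), a secreted metalloprotease of the mucus, varied most. It was counted at 197, 36.4, 166 and 61.9 CPM in wt 2, 4, 6 and 7, and at 63.6, 40.6, 76.4 and 93.6 CPM in cre 5, 8, 9 and 10. The order of the wt libraries split as for Muc2, with 2 and 6 above 7 and 4. The log2 change of -0.75 had an SE of 0.59 and a 95% interval from -2.15 to 0.66 (adjusted p = 0.459), so that neither direction was shown. Leaving out wt 2 moved the estimate to -0.35, and limma on log2(FPKM + 1) gave -0.44.

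Tff3 (chromosome 17, 31125306 to 31129646), the trefoil peptide of goblet cells, was at 163, 143, 282 and 150 CPM in wt 2, 4, 6 and 7, and at 164, 181, 177 and 168 CPM in cre 5, 8, 9 and 10. Apart from wt 6 all libraries were close to each other. The log2 change was -0.10 (SE 0.18, 95% interval -0.49 to 0.30, adjusted p = 0.773) and became 0.18 without wt 6 (adjusted p = 0.257).

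Zg16 (chromosome 7, 127050156 to 127087328), a lectin that binds Gram-positive bacteria in mucus, had the largest positive estimate of the members and did not pass. Its level was 106, 136, 289 and 125 CPM in wt 2, 4, 6 and 7, against 405, 229, 287 and 315 CPM in cre 5, 8, 9 and 10. Here wt 6 was the exception: it lay among the cre libraries, and the other wt libraries lay below all of them. Means were 164 ± 84.3 CPM for wt and 309 ± 73.1 CPM for cre (SD, n = 4 each), with a log2 change of 0.92 (SE 0.35, 95% interval 0.10 to 1.73, adjusted p = 0.140). Without wt 6 the change was 1.34 and passed (adjusted p = 0.00178), as it did with limma on log2(FPKM + 1) (1.04, adjusted p = 0.0465), and in males alone it was 0.43 (adjusted p = 0.470).

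Klk1 (chromosome 7, 44225360 to 44229618) encodes tissue kallikrein, a secreted serine protease. It was at 1905, 1887, 2316 and 1582 CPM in wt 2, 4, 6 and 7, and at 2838, 2946, 3360 and 3010 CPM in cre 5, 8, 9 and 10. The groups did not overlap, and the lowest cre library, the only female of that group, stood above the highest wt library, a male. Klk1 rose from 1923 ± 302 CPM to 3038 ± 226 CPM (SD, n = 4 each), a log2 change of 0.66 (SE 0.11, 95% interval 0.42 to 0.90, adjusted p = 0.00701). The call held when each of the 8 libraries was left out in turn (adjusted p between 0.00239 and 0.0369). It ended in 4 of 22 settings: males alone (adjusted p = 0.130), all 14 libraries in 1 fit (0.305), the ribosomal RNA share as a covariate (0.0544), and that covariate with the GC and length trend removed (0.0872), with log2 changes of 0.59 to 0.72.

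Klk1 has near-identical neighbours with which it may share reads. Of 13 Klk1b genes, the rodent kallikreins of the same cluster, 7 were tested. Among these, 6 passed with a higher level in cre, against 5.64% of all genes tested. They were Klk1b3 (log2 change 0.72), Klk1b4 (0.69), Klk1b5 (0.70), Klk1b8 (0.73), Klk1b11 (0.61) and Klk1b27 (0.88), while Klk1b21 had 0.65 (adjusted p = 0.0848). The summed level of the 13 Klk1b genes was a nearly fixed share of that of Klk1, between 24.99% and 26.47% in the 8 epithelial libraries of both genotypes. Sharing of reads between these genes was not tested, so the Klk1b calls cannot be counted as separate from that of Klk1. A pseudogene on the opposite strand within Klk1, Gm10109, had at most 17 counts in a library.

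Spink4 (chromosome 4, 40920052 to 40931395), a secreted protein of the Kazal inhibitor family made by goblet cells, was at 1196, 1055, 1210 and 770 CPM in wt 2, 4, 6 and 7. In cre 5, 8, 9 and 10 it was at 1577, 1308, 1821 and 1229 CPM. The groups did not overlap but nearly met between wt 6 and cre 10. The log2 change was 0.49 (SE 0.15, 95% interval 0.17 to 0.81) and missed the threshold (adjusted p = 0.0551). It passed in 4 of 22 alternative settings: with sex as a covariate (adjusted p = 0.0479), without wt 6 (0.0414), without the filter on low counts (2.27e-05) and in DESeq2 (0.0287). The smallest estimates came with the GC and length trend removed (0.36, adjusted p = 0.136), with that and the ribosomal RNA covariate (0.31, adjusted p = 0.505), without wt 7 (0.36, adjusted p = 0.0904) and without cre 9 (0.38, adjusted p = 0.171).

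Agr2 (chromosome 12, 35992907 to 36004087), the disulfide isomerase that goblet cells need to produce Muc2, was the most abundant member. Its level was 5366, 5598, 5684 and 4263 CPM in wt 2, 4, 6 and 7, and 8581, 6221, 8003 and 7154 CPM in cre 5, 8, 9 and 10. Every cre library was above every wt library. Agr2 rose from 5228 ± 657 CPM to 7490 ± 1029 CPM (SD, n = 4 each), a log2 change of 0.52 (SE 0.12, 95% interval 0.27 to 0.77, adjusted p = 0.0168). The call was lost without cre 5 (adjusted p = 0.0681) or without cre 9 (adjusted p = 0.0632), the libraries with the highest levels. It was also lost in males alone (adjusted p = 0.156), with all 14 libraries in 1 fit (0.268), and with the ribosomal RNA share as a covariate (log2 change 0.38, adjusted p = 0.213).

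Bcas1, a gene of goblet cells and myelinating glia (chromosome 2, 170346991 to 170427845), was the least abundant member, with 17.8, 12.0, 17.2 and 11.4 CPM in wt 2, 4, 6 and 7 and 17.7, 17.0, 27.7 and 21.0 CPM in cre 5, 8, 9 and 10. The groups overlapped, since wt 2 and wt 6 reached the level of cre 5 and cre 8. Its log2 change was 0.52 (SE 0.20, 95% interval 0.09 to 0.95, adjusted p = 0.111). Antisense genes within Bcas1 had at most 6 counts in a library.

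Spdef (chromosome 17, 27714352 to 27728955), the transcription factor of goblet cell maturation, was at 187, 160, 210 and 129 CPM in wt 2, 4, 6 and 7 and at 245, 185, 256 and 182 CPM in cre 5, 8, 9 and 10. The groups overlapped, with cre 8 and cre 10 below wt 2 and wt 6. The log2 change of 0.34 (SE 0.15, 95% interval 0.02 to 0.67) did not pass (adjusted p = 0.163). It was 0.17 (adjusted p = 0.483) with the GC and length trend removed and 0.23 (adjusted p = 0.331) without wt 7, and it passed only without the filter on low counts (0.36, adjusted p = 0.0293).

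**Figure D2:**
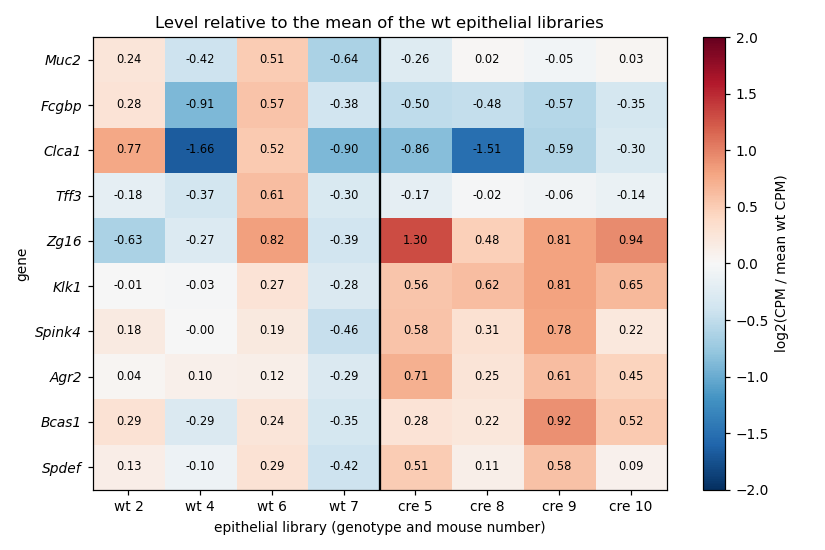
Each cell gives log2 of a member's CPM (rows) in an epithelial library (columns, wt left and cre right of the line) over the mean of the wt libraries, printed in the cell and coloured from -2 to 2. The 6 members from Zg16 down to Spdef are positive in all 4 cre libraries, whereas Fcgbp and Clca1 are negative there and also in wt 4 and wt 7.

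The members showed unlike patterns, and differences between them were not tested. Klk1, Spink4 and Agr2 were 3 of 10 members with every cre library above every wt library, against 9.92% of all genes tested, and no member had every cre library below, against 6.68%. Muc2, Tff3, Fcgbp and Clca1 were 4 of 10 with all cre libraries inside the wt range, against 20.7% of all genes, and none had all wt libraries inside the cre range, against 8.97%. A narrower cre than wt spread follows from how these 4 are defined. The coefficient of variation was 36.9% in wt and 9.07% in cre libraries for Muc2, 42.9% and 6.54% for Fcgbp, 51.4% and 23.6% for Zg16 and 15.7% and 7.43% for Klk1, but 12.6% and 13.7% for Agr2 and 23.1% and 23.3% for Bcas1. The difference in spread was not tested. Wt 2 and wt 6 were the highest wt libraries and wt 4 and wt 7 the lowest for 8 members, all but Agr2 and Zg16. For Zg16, wt 2 was the lowest of all 8 libraries, and for Agr2 wt 4 and wt 6 led the wt group. Summed, the members took 0.972% to 1.32% of all counts in wt and 1.39% to 1.98% in cre libraries. Without ribosomal and mitochondrial counts in the total these ranges overlapped, at 1.48% to 2.36% and 2.23% to 2.44%.

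**Figure D3:**
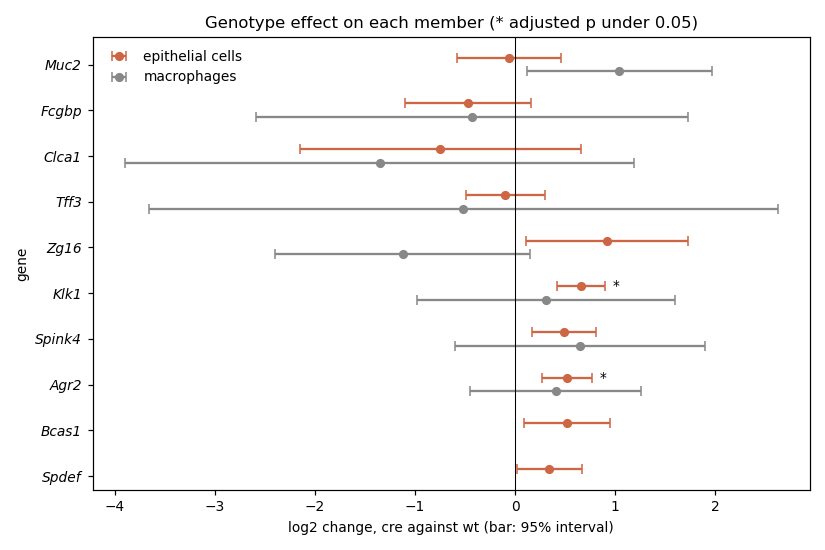
Log2 change of cre against wt (horizontal axis) with 95% intervals for each member, in epithelial cells (red, 4 against 4 libraries) and macrophages (grey, 3 against 3). Intervals of Klk1 and Agr2 in epithelial cells are marked as passing an adjusted p of 0.05, and the macrophage intervals are wide and unmarked.

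Library measures of the epithelial groups stand beside these results. None of 11 passed an exact permutation test after adjustment (lowest adjusted p = 0.0786). Ribosomal RNA took 18.5% to 31.8% of counts in wt and 7.38% to 26.7% in cre epithelial libraries, with wt 6 and cre 8 the highest of their groups (exact two-sided permutation p = 0.114). Genes of mitochondrial DNA took 11.6% to 18.1% and 10.4% to 10.7%, without overlap (exact permutation p = 0.0286, the smallest that 4 against 4 allows, and 0.0786 adjusted over 11 library measures). With the ribosomal RNA share as a covariate 3 genes passed in all and no member, and in males alone, 2 wt against 3 cre libraries, 5 genes and no member. The log2 change went with transcript length (Spearman's rho -0.37) and GC content (0.33) across 13543 genes, which are not independent of each other. Transcripts of members with a positive estimate had 397 bases (Spink4), 723 (Zg16), 907 (Agr2), 954 (Klk1), 1921 (Spdef) and 2952 (Bcas1). Those of members with a negative estimate had 493 (Tff3), 2926 (Muc2), 3655 (Clca1) and 7928 bases (Fcgbp), so that the lengths of these sets overlapped. After a trend on both properties was removed from each library, Klk1 still rose by 0.51 on the log2 scale (adjusted p = 0.0181) and Agr2 by 0.49 (adjusted p = 0.0301). The other members did not pass there, and the log2 change was 0.80 for Zg16, 0.49 for Bcas1, 0.36 for Spink4, 0.17 for Spdef, -0.13 for Muc2, -0.21 for Fcgbp, -0.25 for Tff3 and -0.62 for Clca1.

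Compared per transcript length, as the FPKM deposited by the authors (fragments scaled to transcript length and library depth), the members differed widely in epithelial cells. Agr2 led with 5633 ± 1353 FPKM (SD, n = 8), above every other member in all 8 libraries, and it stood at percentile 99.95 of the genes tested. Spink4 followed with 2223 ± 581 FPKM and Klk1 with 1807 ± 493, and these did not separate fully, since Spink4 was above Klk1 in 7 of 8 libraries. Muc2 came next with 821 ± 203 FPKM, below both in every library. Its level per length depends on the gene model: the annotation holds Muc2 as 8 transcripts of 7127 exonic bases in all, with a stretch of 40000 bases free of exons (141704612 to 141744611). The longest of these transcripts has 2926 bases, and the length behind the deposited value is not given here. Tff3 (251 ± 59.8 FPKM) and Zg16 (241 ± 111) were not distinct over all 8 libraries, and their order differed by genotype. Tff3 was higher in all 4 wt libraries (226 against 106 FPKM in wt 2, 389 against 289 in wt 6) and in 1 of 4 cre libraries, cre 8 (260 against 238). Spdef stood at 70.1 ± 15.8 FPKM, and Clca1 (17.4 ± 10.9) and Fcgbp (13.6 ± 4.88) again overlapped, in the same order in 5 of 8 libraries. Bcas1 was last with 3.98 ± 1.19 FPKM.

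**Figure D4:**
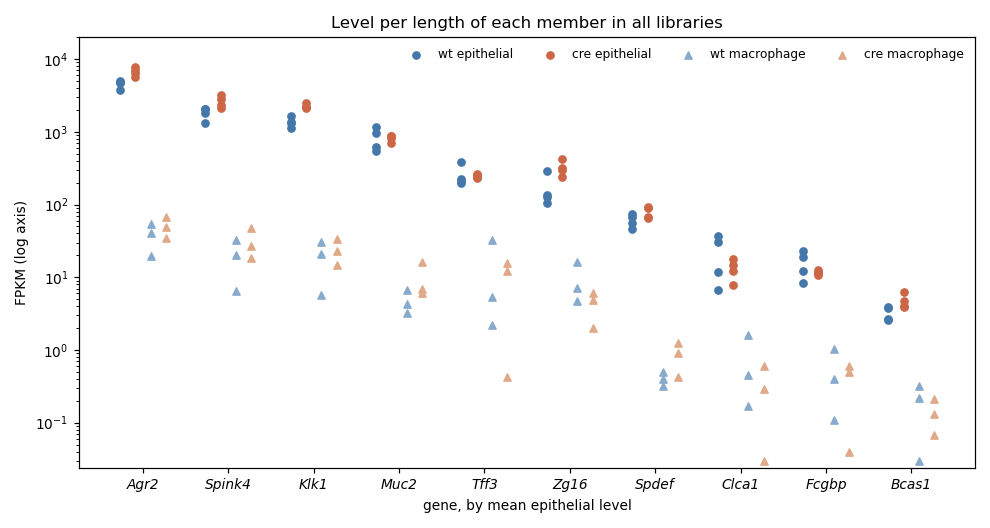
FPKM on a log axis of each member (ordered by mean epithelial level) in all 14 libraries, circles for epithelial cells and triangles for macrophages, blue for wt and red for cre; 2 values of 0 (Bcas1 in wt 4, Clca1 in cre 9) are drawn at the lower edge. For each member the epithelial points lie above all macrophage points.

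The macrophage libraries held little of these transcripts, and no genotype effect on a member was found there. All 10 members were higher in epithelial cells (10 of 10, against 22.5% of all genes tested), by 4.59 on the log2 scale for Tff3 up to 7.09 for Agr2, with a median of 5.88. Muc2 was at 14.5, 10.8 and 22.4 CPM in macrophages of wt 2, 4 and 6 and at 24.3, 20.4 and 53.9 CPM in those of cre 8, 9 and 10. The groups overlapped, cre 10 was the highest, and the log2 change was 1.04 (SE 0.41, adjusted p = 0.325). Agr2 was at 34.6, 16.4 and 46.0 CPM in wt and at 42.2, 29.0 and 57.5 CPM in cre macrophages, and Klk1 at 31.3, 5.95 and 21.7 against 23.97, 14.9 and 34.6 CPM, both with overlapping groups. Spink4 stood at 13.8, 2.78 and 8.65 against 11.8, 7.79 and 20.4 CPM. The other 6 members had means under 10 CPM in both groups. Bcas1 had no count in wt 4, which allows up to 0.397 CPM, and Clca1 none in cre 9, which allows up to 0.334 CPM (3 counts, counting error only). No member passed in macrophages (0 of 8 tested, 1 of them, Muc2, at an unadjusted p under 0.05), against 0.944% of all genes. DESeq2 also called no member there. The epithelial marker Epcam was at 8.91 ± 5.30 CPM in wt and 4.77 ± 1.56 CPM in cre macrophages (SD, n = 3 each), against 587 ± 77.8 and 476 ± 63.0 CPM in epithelial cells (SD, n = 4 each). Its part in the member levels of macrophages was not tested.

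The difference between the genotype effects of the 2 cell types was not shown for any member (0 of 10, against 0.702% of all genes, with Muc2 and Zg16 at an unadjusted p under 0.05). Zg16 had the largest estimate, 2.12 higher on the log2 scale in epithelial cells than in macrophages (SE 0.66, adjusted p = 0.159), as its macrophage change was -1.12 (SE 0.56, adjusted p = 0.455). For Muc2 the difference was -1.07 (SE 0.47, adjusted p = 0.292). For Klk1 it was 0.40 (SE 0.52, adjusted p = 0.772), and for Agr2 0.15 (SE 0.38, adjusted p = 0.913).

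Genes that act on mucins around these members were read from fixed lists, each described by counts. These lists, like the marker lists further below, were chosen with earlier results of these data known. Among 32 tested genes of protein folding and mucin assembly in the endoplasmic reticulum, where Agr2 acts, 4 rose and none fell (median log2 change 0.01): Ern2, a stress sensor of secretory epithelium (0.52), the disulfide isomerase Pdia6 (0.28), the chaperone Creld2 (0.50) and the cargo transporter Tmed3 (0.47). Of 29 tested genes that add sugars to mucins, 3 rose and 3 fell (median -0.09). Galnt6, which starts O-glycans, rose by 0.52, B3gnt3, which extends them, by 0.51, and the sialyltransferase St6galnac6 by 0.45, all on the log2 scale. Galnt1 and Galnt4, which start O-glycans as well, fell by 1.07 and 0.64 on that scale, and C1galt1, which makes the core of most O-glycans, fell by 1.18.

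Among 24 tested transcription and Notch pathway genes of the secretory lineage, to which Spdef belongs, none rose and 2 fell (median -0.20). Sox4, a factor of secretory progenitors, fell by 0.82 and the epithelial ETS factor Ehf by 0.39 on the log2 scale, while Hes6 had 0.34 (adjusted p = 0.0717) and Hnf4a -0.36 (adjusted p = 0.0532). Of 28 tested genes of granule traffic and exocytosis, 1 rose and 2 fell (median -0.09). Stxbp2, which serves granule fusion, rose by 0.50. The chloride transporters Slc12a2 and Cftr, which supply the salt and water that hydrate mucus, fell by 0.93 and 0.67, and Nlrp6, an inflammasome sensor studied in goblet cells, had -0.39 (adjusted p = 0.0513).

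Of 28 other tested genes listed for goblet cells, 3 rose and none fell (median 0.04). The phospholipase Pla2g10 rose by 0.36, Oit1 by 0.38 and the actin-binding Tmsb10 by 0.51 on the log2 scale. Lypd8 of this list is also counted with the colonocyte markers below, and Galnt12 with the genes that add sugars. Wfdc2, a secreted protease inhibitor, had 0.48 (adjusted p = 0.0559). None of the 7 tested mucin genes passed (median -0.18). The membrane mucins Muc13 and Muc3 had -0.37 (SE 0.18, adjusted p = 0.212) and -1.22 (SE 0.64, adjusted p = 0.271), and Muc4 and Muc3a had -0.18 and -0.20. Over all genes 9.17% passed in either direction, and the counts of these lists rest on 7 to 32 genes each.

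**Figure D5:**
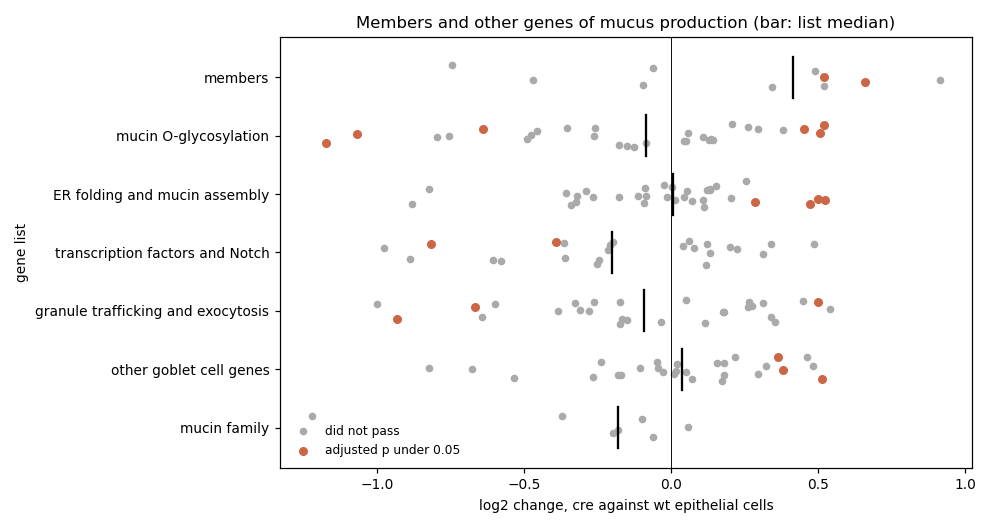
Log2 change of cre against wt epithelial cells (horizontal axis) of each tested gene in 7 lists (rows), red where the adjusted p was under 0.05, with a bar at each list's median. The median of the members is at 0.42 and the medians of the other lists lie between -0.20 and 0.04.

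Calls in the marker lists of other cells in the epithelial sort are read against 9.17% of all genes. The share called was higher for macrophage (6 of 16), crypt (2 of 14), tuft (1 of 6) and fibroblast markers (1 of 2). It was lower for the colonocyte, enteroendocrine and lymphocyte lists. Outside the macrophage list these shares rest on at most 2 called genes each and do not set the lists apart from all genes. The part of these cells in the member results was not tested. Of 15 colonocyte markers 1 rose, Car1, the carbonic anhydrase of absorptive cells (0.62), and their summed level was 3448 to 6807 CPM in wt and 4681 to 5676 CPM in cre libraries. Slc51a (0.59), Slc20a1 (-0.83) and Clca4a (-1.17) of that list did not pass. Of 14 markers of stem and dividing crypt cells 2 fell, Cdca7 and Top2a, with sums of 576 to 822 and 682 to 789 CPM, while Lgr5 (-0.67, adjusted p = 0.0698) and Myc (-0.64) did not pass. Neurod1 fell among 12 enteroendocrine markers (sums of 909 to 1513 and 652 to 1149 CPM), and Dclk1 among 6 tested tuft cell markers (27.9 to 46.5 and 14.3 to 32.5 CPM). In these lists Chgb (-0.89, adjusted p = 0.0624), Gcg (-0.67), Tph1 (-1.39), Trpm5 (-0.91, adjusted p = 0.0606) and Sh2d6 (-0.71) did not pass. Of 16 tested macrophage markers 6 fell, with sums of 250 to 623 CPM in wt and 174 to 334 CPM in cre libraries, ranges that overlap. Lyz2, the locus that holds Cre, fell by 1.40, Cybb by 1.33, and Laptm5 and H2-Aa by 1.43 each on the log2 scale. For Lyz2 an effect of the Cre allele and a lower macrophage content cannot be told apart. Csf1r, the defining receptor of that list, stood at 5.39 to 16.9 CPM in wt and 2.73 to 11.1 CPM in cre libraries. Lymphocyte and plasma cell markers summed to 22.9 to 126 and 34.0 to 103 CPM. Fibroblast and muscle markers summed to 12.0 to 20.1 and 7.70 to 11.7 CPM, without overlap (exact permutation p = 0.0286, 0.0786 adjusted). None of 3 tested lymphocyte and plasma cell genes passed (Igha -0.49, Jchain -0.20). Of 2 tested fibroblast and muscle genes 1 fell, the collagen gene Col3a1, while Vim had -0.39. The summed levels of the colonocyte, crypt, enteroendocrine, tuft, macrophage and lymphocyte lists did not pass an exact permutation test (unadjusted p from 0.0571 for tuft to 0.886 for crypt markers). Most single markers of these lists had a negative log2 change. It was positive for 4 of 15 colonocyte (median -0.56), 3 of 14 crypt (-0.27) and 1 of 12 enteroendocrine markers (-0.61). None of the tested tuft (median -0.81), macrophage (-0.95) and lymphocyte markers (-0.35) was positive. Among 13 general epithelial markers, Krt8 (0.62), Krt18 (0.42) and Lgals4 (0.47) rose and Cdh1 and Cd44 fell, by 0.36 and 0.87 on the log2 scale. Cd44 encodes an antigen used to sort these cells. The sum of the general epithelial markers was 11973 to 14242 CPM in wt and 15344 to 18706 CPM in cre libraries, without overlap (exact permutation p = 0.0286, 0.0786 adjusted), beside a sum of the 10 members of 9671 to 15868 and 15109 to 17801 CPM, which overlapped. Tsc2 was at 31.3 ± 7.46 CPM (SD, n = 3) in macrophages of wt and 28.3 ± 3.98 CPM (SD, n = 3) in those of cre animals, counted over the whole gene, so that this level does not check the deletion.

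The genes whose epithelial pattern was most like the mean of the members were sought among 5212 other genes, by Pearson correlation over the 8 epithelial libraries. Closest was Dym, a Golgi gene (r = 0.99, Spearman's rho 0.93), followed by Rep15, a partner of Rab15 (r = 0.97, rho 1), and Stambp, a deubiquitinase (r = 0.97, rho 0.88). Pttg1, Ano9, Atp6v1g1, Sharpin, Tpsg1, Ang and Abhd11os completed the first 10, with r between 0.92 and 0.94. None of these 10 passed the test of genotype. The libraries share depth and ribosomal RNA content, which enter these values, and no test was made of them. The mean level of Dym was 148 ± 32.4 CPM for wt and 179 ± 14.3 CPM for cre libraries (SD, n = 4 each), and Rep15 at 22.7 ± 8.30 and 27.2 ± 4.07 CPM.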

How the data were processed

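Colon cells were sorted and their RNA was turned into cDNA by Smart-seq2, which keeps no strand; Nextera XT libraries were read as 50 bp single reads, per the labels' protocols. The authors deposited raw counts per gene and FPKM. Tools listed in the submitters' processing notes, with no role stated, are STAR (2.5.2b), Picard (2.19.2) and DESeq2 (1.24.0), with the genome GRCm38. The counter and annotation release were not stated there. Deposited FPKM equalled the count over a value per gene and a factor per library. The 14 libraries held 7269103 to 9364551 counts, and none was a copy of another.

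Tests used edgeR 4.0.16 (R 4.3.3) on the deposited counts: TMM, filterByExpr at 10 counts, robust quasi-likelihood F test, Benjamini-Hochberg adjusted p under 0.05 over all genes tested. Epithelial cells and macrophages were fitted alone, and the difference of effects and the cell types (also a log2 change of 1) over all 14 libraries. CPM were scaled within each cell type. SE is the log2 change over the square root of F. On simulated data the epithelial model recovered 68% of genes changed 2-fold and 96% of those changed 4-fold. The macrophage model recovered 16% and 72% of these, and the model of the difference 7% and 49%. Changes under 2-fold, as estimated for every member in epithelial cells, were not simulated. Each gene was given the same mean in all libraries apart from the set change, without the gap between cell types. Alternatives used DESeq2 1.42.0, limma 3.58.1 on log2(FPKM + 1), other filters and covariates, and each library left out.

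The members and lists were chosen with earlier results of these data known. Named were the members, in each list the 4 smallest p with a mean of 5 CPM and the called genes at 100 CPM (at most 6), and the 10 genes most like the members at 20 CPM or more. Outside this rule, Tsc2, Epcam and Csf1r were given as checks of the labels, and Gm10109, Col3a1 and the smaller Klk1b genes after their values were seen. St6galnac2, 1 of 114 symbols on more than 1 row, was left out. Lengths, positions and GC content came from GENCODE M21.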

Additional observations from a re-analysis of the deposited data

Results flagged for a closer look

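In the wt epithelial group, Tff3 in mouse 6 (281.8 CPM) stood far from the other 3 libraries: its gap to the nearest was 0.852 of the range of the group. Zg16 in the same library (289.3 CPM) stood apart in the same way, with a gap of 0.838 of the range. Of 20 groups of 4 libraries (10 members in 2 genotypes) these 2 passed the limit, and chance passes about 1 in 20. Wt 6 also had the highest ribosomal RNA share of the epithelial libraries, 31.8% of counts.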

How the results depend on the processing

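In epithelial cells Klk1 was positive in all 22 alternatives and passed in 18, and Agr2 was positive in 22 and passed in 14. Against 1243 genes and 2 members called, DESeq2 called 1865 genes and 3 members, and no filter on low counts 1818 and 5 (with Spink4, Bcas1 and Spdef). Limma on log2(FPKM + 0.1) called 632 genes and 1 member, and log2(FPKM + 1) without a filter 693 and 1, in both with Agr2 lost. Males alone gave 5 genes and 0 members, all 14 libraries in 1 fit 19 and 0, and the ribosomal RNA share as a covariate 3 and 0. Removing the trend on GC content and length left 615 genes and 2 members, and together with that covariate, chosen after seeing the data, 7 and 0. Leaving out each library in turn gave 178 (without cre 9) to 1947 genes (without cre 8) and 1 to 4 members; without cre 5, cre 10 and wt 2 it gave 318, 548 and 682 genes. In males and in the 14-library fit Klk1 (adjusted p = 0.130 and 0.305) and Agr2 (0.156 and 0.268) kept their size, at 0.52 to 0.68 on the log2 scale.

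The sign turned for Muc2 and Tff3. Their log2 changes were 0.0522 and 0.000406 with log2(FPKM + 1), with or without the filter, 0.0524 and 0.000580 with a pseudocount of 0.1, 0.20 and 0.23 with the ribosomal RNA covariate, and 0.14 and 0.0886 with that and the trend removed. With each library left out they ranged from -0.22 to 0.16 for Muc2 and from -0.20 to 0.18 for Tff3.

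In macrophages no alternative called a member. Against 133 genes, DESeq2 called 495, no filter 299, sex as a covariate 2, and leaving out each library 29 to 87. Sex as a covariate turned Agr2 to -0.10 and Tff3 to 0.80. Leaving out libraries moved Klk1 between -0.12 and 0.82, Tff3 between -1.13 and 1.29 and Fcgbp between -0.96 and 0.57.

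For the difference of effects, mouse number as a replicate block over the 6 mice with both cell types called 7 genes against 115, the same mice without the block, a setting added after seeing the data, 10, and leaving out each library 54 to 229, with 0 members throughout. RLE size factors moved the split from 38 higher and 77 lower to 53 and 70. The block turned Agr2 to -0.0512 and Fcgbp to -0.0818, and Fcgbp was -0.0105 without it. Leaving out libraries moved Agr2 between -0.18 and 0.46, Klk1 between -0.14 and 0.82, Spink4 between -0.70 and 0.35, Tff3 between -1.32 and 1.19, Fcgbp between -0.96 and 0.65 and Clca1 between -0.55 and 1.88. With the block 10 members stayed higher in epithelial cells, among 8341 genes against 8543. Deviations of same-numbered libraries correlated at -0.0982 to 0.102, so the numbers were not shown to pair them. The mitochondrial difference of -4.99 percentage points lay between -6.27 and -4.12 with each library left out, at an exact permutation p of 0.0571, the smallest that 3 against 4 allows. For all of these the cause was not tested.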
